A study of Homo sapiens with 60 samples.

Results

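H1975 cells, an EGFR-mutant non-small cell lung adenocarcinoma line, were compared after a long and a short time without the EGFR inhibitor osimertinib. The members were the 3 libraries labelled long washout (72 h without drug) and the 3 labelled short washout (24 h without drug), chosen by their labels only, 6 of 60 libraries in the series. Both arms first received 500 nM osimertinib for 21 days, after which the surviving cells are called drug-tolerant persisters (DTPs), and were then washed and kept in drug-free medium. The other H1975 arms were DTPs harvested under drug at 21 days, parental cells given 500 nM osimertinib for 24 h (acute) and parental cells given the solvent DMSO for 24 h, with 3 libraries each, and the same 5 arms were made in PC9, HCC827 and HCC2935. The submitters describe the long washout as lasting until cells grew exponentially again, 72 h in H1975, 96 h in HCC827, 7 days in PC9 and 10 days in HCC2935, so that its length differed between lines. The parental cells of the acute and DMSO arms had spent the 21 days without drug. The labels call the 3 replicates of an arm biological, what made them separate is not given, and p-values measure the spread between these libraries.

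EGFR signals through RAS, RAF and ERK to transcription factors and to feedback inhibitors such as the DUSP and Sprouty proteins, and through AKT, which holds FOXO factors out of the nucleus. Cells without this signal leave the cell cycle, and the E2F target genes of DNA replication and the genes of mitosis fall. Persisters survive the drug in this slow state and are known to resume growth once the drug is removed.

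The libraries held 41.3 to 42.5 M estimated counts in long washout and 43.4 to 45.9 M in short washout, so the totals of the arms did not overlap. Between 14537 and 14722 genes reached 10 counts per library. Pearson's r of log2 CPM (counts per M counts of the library) was 0.992 to 0.995 within arms and 0.984 to 0.993 between them. The 6 libraries correlated more with H1975 under DMSO (r 0.935 to 0.961) than with any other line under DMSO (0.764 to 0.848). The keratin KRT8 was at 851 to 1184 CPM, but the epithelial markers EPCAM (17.7 to 22.1 CPM) and CDH1 (3.95 to 10.1 CPM) were far below their DMSO ranges of 113 to 261 and 128 to 359 CPM, as they were in DTPs. Of 14 markers of other cell types, CD3E, HBB and LYZ were at or near 0. The summed level (scaled over 60 libraries) was 250 to 393 CPM in long and 248 to 459 CPM in short washout, most of it from CD68 (74.9 to 115 CPM over both arms), COL1A1 (76.5 to 217 CPM) and COL1A2 (43.1 to 143 CPM), which overlapped between arms.

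The libraries labelled long washout held less RNA of cell cycle genes than those labelled short washout and sat at the level of DTPs. This runs against the description of that arm as growing again, so each direction is given here for the labels as they stand. With the labels of the arms exchanged, every long minus short difference within H1975 keeps its size and p and turns its sign. A mix-up of tubes or labels and a true difference between 24 and 72 h cannot be told apart within these 6 libraries. Comparisons below that involve DTPs, DMSO or the other lines show what each reading implies.

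Of 14672 genes tested, 1429 (9.74%) differed between long and short washout at an adjusted p under 0.05, with 595 higher (4.06%) and 834 lower (5.68%) in long washout. A change of at least 2-fold was seen for 116 of the higher and 125 of the lower genes, and the median log2 fold change over all genes was 0.01. Under limma on the log2 TPM values the split was 353 higher and 765 lower. The arms did not overlap for 4944 genes (33.7%). The number called changed when single libraries were left out. It fell to 440 without long washout replicate 1, 444 without short washout replicate 1 and 543 without long washout replicate 3. It fell to 711 without long washout replicate 2 and 746 without short washout replicate 2, and it was 2076 without short washout replicate 3.

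**Figure D1:**
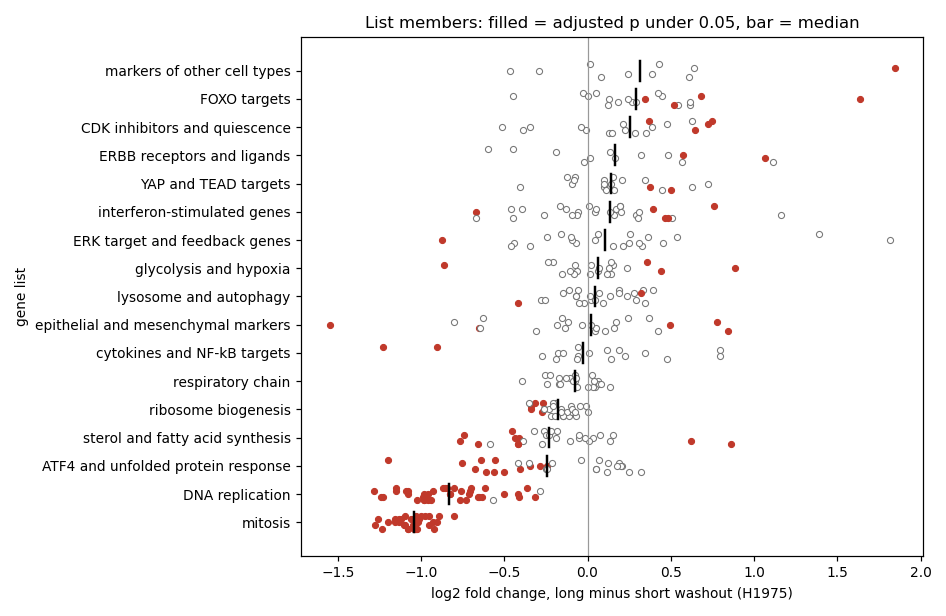
Log2 fold change (long minus short washout in H1975, x axis) of the members of 17 gene lists (y axis, ordered by their medians). Each point is a gene, filled where the adjusted p is under 0.05, and the black bar is the median. The 36 mitosis genes and 38 of the 40 DNA replication genes lie below 0 and are filled, while the medians of the other lists lie between -0.25 and 0.31.

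The mitosis and DNA replication genes are shown with the promoter stretches of 4 of them, since these genes moved together. They were picked as examples that hold matches to elements known to time the expression of such genes, which other members lack. The stretches are the 250 bases before the start of each gene on GRCh38.p14 (RefSeq), 5′ to 3′, with matches in capitals. In PCNA (chr20:5126623-5126872 on the minus strand) the capitals mark an E2F site (TTTGGCGC or TTTCCCGC on either strand). In MKI67 (chr10:128126424-128126673 on the minus strand), TOP2A (chr17:40417897-40418146 on the minus strand) and CDK1 (chr10:60778081-60778330 on the plus strand) they mark the CHR element (TTTGAA or TTCGAA) and the CCAAT box on either strand, and in MKI67 a CHR and a CCAAT match share bases.
PCNA: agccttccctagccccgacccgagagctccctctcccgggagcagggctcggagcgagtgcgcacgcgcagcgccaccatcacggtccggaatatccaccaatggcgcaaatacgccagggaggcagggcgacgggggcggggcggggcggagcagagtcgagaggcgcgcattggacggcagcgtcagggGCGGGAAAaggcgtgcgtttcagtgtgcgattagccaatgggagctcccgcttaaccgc
MKI67: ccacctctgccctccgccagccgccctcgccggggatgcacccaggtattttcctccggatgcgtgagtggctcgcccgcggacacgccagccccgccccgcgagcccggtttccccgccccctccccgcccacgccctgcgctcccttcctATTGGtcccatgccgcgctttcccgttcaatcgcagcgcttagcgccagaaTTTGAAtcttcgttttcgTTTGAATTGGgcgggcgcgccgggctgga
TOP2A: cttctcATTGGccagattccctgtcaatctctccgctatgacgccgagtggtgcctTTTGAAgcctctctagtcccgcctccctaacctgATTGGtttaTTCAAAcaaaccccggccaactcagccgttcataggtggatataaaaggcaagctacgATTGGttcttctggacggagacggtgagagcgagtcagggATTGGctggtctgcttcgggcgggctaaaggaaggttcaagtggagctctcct
CDK1: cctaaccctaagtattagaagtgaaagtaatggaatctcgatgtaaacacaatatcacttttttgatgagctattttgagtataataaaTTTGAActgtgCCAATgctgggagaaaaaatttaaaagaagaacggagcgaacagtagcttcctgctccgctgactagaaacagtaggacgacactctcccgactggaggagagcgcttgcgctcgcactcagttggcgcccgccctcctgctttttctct
An E2F match stood in 18 of the 35 promoters found for the 40 DNA replication genes (51.4%) and in 2.31% of all 27305 promoters of 300 bases. A CHR match stood in 22 of 30 mitosis promoters (73.3%, against 16.6% of all) and a CCAAT match in 23 of 30 (76.7%, against 35.7%), while the E2F match stood in 2 of 30. These are counts of letters in a window and were not tested.

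All 36 mitosis genes fell in long relative to short washout (lower genes made up 5.68% of all genes). The arms did not overlap for any of the 36. Over all 14672 genes tested, 2503 lay lower in long washout without overlap. The log2 fold changes of the mitosis genes ran from -1.28 to -0.80 with a median of -1.04. The median of the list, as log2(CPM + 1), was 5.04, 5.47 and 5.09 in long washout and 6.18, 6.48 and 6.02 in short washout, and it was 4.88 to 5.999 in DTPs and 7.04 to 7.30 under DMSO. Long washout thus lay within the DTP range, and the lowest short washout library lay just above the highest DTP library. In bulk RNA, fewer cycling cells and less of this RNA per cell cannot be told apart. MKI67, the proliferation antigen Ki-67, was at 152, 230 and 164 CPM in long washout and at 372, 458 and 323 CPM in short washout. Its level in each long washout library lay below each short washout library, a log2 fold change of -1.08 (SE 0.17, adjusted p = 0.00835). TOP2A, the topoisomerase that untangles sister chromatids, was at 237, 331 and 263 CPM against 512, 623 and 472 CPM (log2 fold change -0.95, SE 0.14, adjusted p = 0.00669). CDK1, the kinase that starts mitosis, was at 32.9, 48.7 and 32.6 CPM against 80.5, 88.3 and 81.4 CPM. Its partner cyclin B1 (CCNB1) fell by 1.01 on the log2 scale and the mitotic kinase PLK1 by 1.28, the largest change of the list. Replicate 2 was the highest long washout library for each of these 5 genes and replicate 2 of short washout the highest of that arm.

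Of 40 DNA replication genes, 38 fell in long washout and none rose, with a median of -0.83. The 2 that did not pass were CCNE1 (cyclin E1, log2 fold change -0.29, adjusted p = 0.105) and POLE2 (a subunit of DNA polymerase epsilon, -0.57, adjusted p = 0.12). MCM5, a subunit of the replicative helicase, was at 42.7, 43.6 and 44.7 CPM in long and at 99.7, 129 and 80.3 CPM in short washout, with no overlap and a log2 fold change of -1.24 (SE 0.15, adjusted p = 0.00474). RRM2, the ribonucleotide reductase subunit that supplies deoxynucleotides, was at 46.6, 68.3 and 64.2 CPM against 144, 171 and 121 CPM. The fall of RRM2 was the largest of the list (-1.28, SE 0.16, adjusted p = 0.00474). MCM2, another helicase subunit, fell by 0.73 and PCNA, the sliding clamp of the polymerases, by 0.83. Without any 1 library, between 28 and 36 of the 36 mitosis genes and between 28 and 36 of the 40 replication genes were still called, all lower in long washout. In the fit of all 15 H1975 libraries, 20 mitosis and 32 replication genes were called, all lower. MKI67 (edgeR, adjusted p = 0.071), TOP2A (0.0613) and CCNB1 (0.0524) were not among the 20, while CDK1 (0.0247) and PLK1 (0.0234) were.

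**Figure D2:**
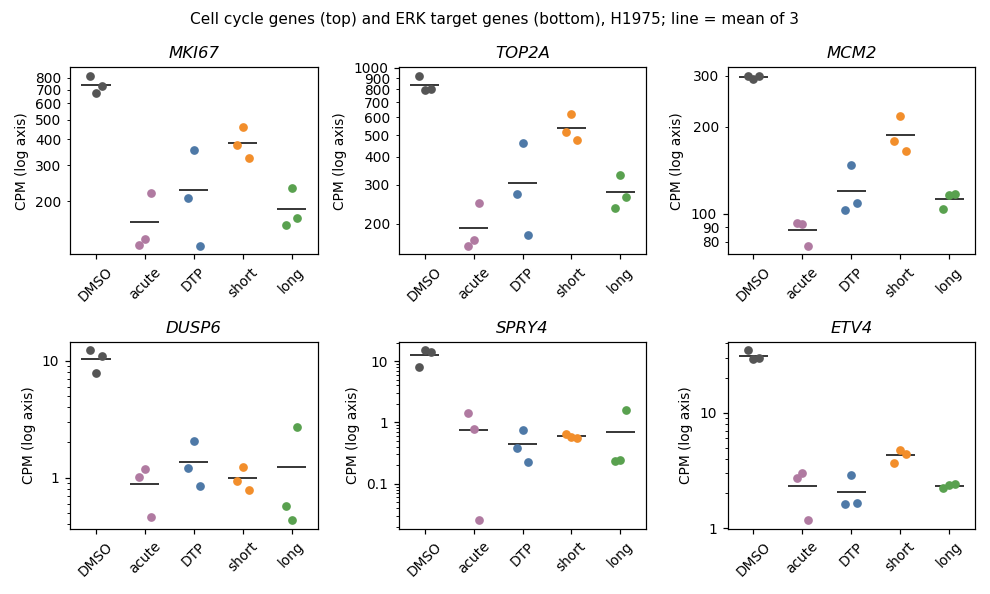
Levels of 3 cell cycle genes (top) and 3 ERK target genes (bottom) in CPM on a log axis, by arm of H1975. Points are the 3 libraries of an arm and the line is their mean. The cell cycle genes are higher in short than in long washout, and the ERK target genes stay far below DMSO in both.

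Both washout arms were compared with DTPs and DMSO in a fit of the 15 H1975 libraries, whose contrasts share libraries. Long washout differed from DTPs in 1 of 15379 genes (0.0065%), with 615 at an unadjusted p under 0.05. Short washout differed from DTPs in 9 genes (0.0585%), all higher in short washout, with 2110 at an unadjusted p under 0.05. Against DMSO, 8197 genes (53.3%) differed in long washout, 6726 (43.7%) in short washout and 7950 (51.7%) in DTPs. The 3 DTP libraries were themselves spread, with MKI67 at 206, 354 and 121 CPM, and DTP replicate 2 overlapped the short washout range of 323 to 458 CPM.

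DTP and short washout libraries of the same number deviated together from their arm means (r across 15379 genes 0.23, 0.56 and 0.50 for numbers 1 to 3, and each library correlated best with its own number). The long washout libraries did not deviate with DTPs (-0.15, -0.04 and -0.20) or with short washout of the same number. With the DTP and short washout libraries fitted alone and the number as a block, 1697 of 14665 genes (11.6%) differed, 983 higher (6.7%) and 714 lower (4.87%) in short washout, against 0 genes without the block (1950 at an unadjusted p under 0.05). In this paired fit all 36 mitosis genes and 38 of 40 replication genes were higher in short washout than in DTPs, with medians of 0.86 and 0.69. The DTP and long washout libraries alone gave 2 genes with or without the block, and none of either list. The pairing was read from the same expression values, after the other results were known, and the labels do not give it. DMSO and long washout libraries also each correlated best with their own number, though only at r 0.007, 0.017 and 0.033.

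For the mitosis list the median log2 fold change against DTPs was -0.31 in long washout and 0.77 in short washout, with none of 36 genes called in either in the fit of 15 libraries. Against DMSO it was -1.91 in long washout (36 lower), -0.79 in short washout (27 lower) and -1.56 in DTPs (36 lower). Of all genes, 26%, 21.8% and 25.7% were lower than under DMSO in these arms, in the same order. The replication list gave medians against DTPs of -0.18 in long and 0.66 in short washout. The 9 genes called in short washout against DTPs were not picked by a rule. They included CDT1, which licenses replication origins, and FANCA, a Fanconi anaemia repair protein. CDT1 was at 14.6, 20.1 and 16.5 CPM in DTPs, at 32.5, 40.8 and 32.1 CPM in short washout and at 15.1, 18.8 and 20.2 CPM in long washout. FANCA was at 32.3, 40.1 and 34.6 CPM in DTPs, at 63.9, 63.0 and 61.9 CPM in short washout and at 31.6, 38.98 and 31.6 CPM in long washout. For both genes short washout lay apart from DTPs and long washout overlapped them. None of the 9 was called without short washout replicate 1 or 2, and the count was 15 without short washout replicate 3, 3 without long washout replicate 1 or 3 and 2 without long washout replicate 2.

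SLC44A2, a choline transporter-like protein and the only gene called in long washout against DTPs, moved the other way. It was at 743, 721 and 674 CPM in DTPs, at 601, 574 and 533 CPM in short washout, at 296, 270 and 195 CPM in long washout and at 195, 195 and 184 CPM in DMSO. The means thus fell in the order DTP, short washout, long washout and DMSO, with a log2 fold change of -1.49 for long washout against DTPs (adjusted p = 0.00648) and of -1.16 for long against short washout (adjusted p = 0.00474). The count against DTPs was 0 without long washout replicate 2 and 4 without long washout replicate 1. Among 1106 genes called both between long and short washout and between DTPs and DMSO, which rest on different libraries, the difference between long and short washout had the sign of the difference between DTPs and DMSO in 989 (89.4%). Those genes were shifted toward DMSO in short washout, and 74 of them were on the mitosis and replication lists. The remaining 117, SLC44A2 among them, were shifted toward DMSO in long washout and held none of the 2 lists.

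Each library was placed on the line from the DTP mean (position 0) to the DMSO mean (position 1) of its cell line, over all genes of the fit. In H1975 the long washout libraries were at -0.03, 0.01 and 0.00 and the short washout libraries at 0.14, 0.26 and 0.09, while the DTP libraries were at -0.03, 0.13 and -0.10. Long washout lay 0.170 below short washout without overlap (exact two-sided permutation test, p = 0.1, the smallest that 3 against 3 libraries allow, and 0.4 adjusted over 4 lines). Long minus short washout was 0.233 in PC9 (exact p = 0.3), 0.0222 in HCC827 (exact p = 0.6) and 0.0852 in HCC2935 (exact p = 0.4), each with overlapping arms. With the H1975 labels exchanged, its difference would be above 0 as in the other lines.

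**Figure D3:**
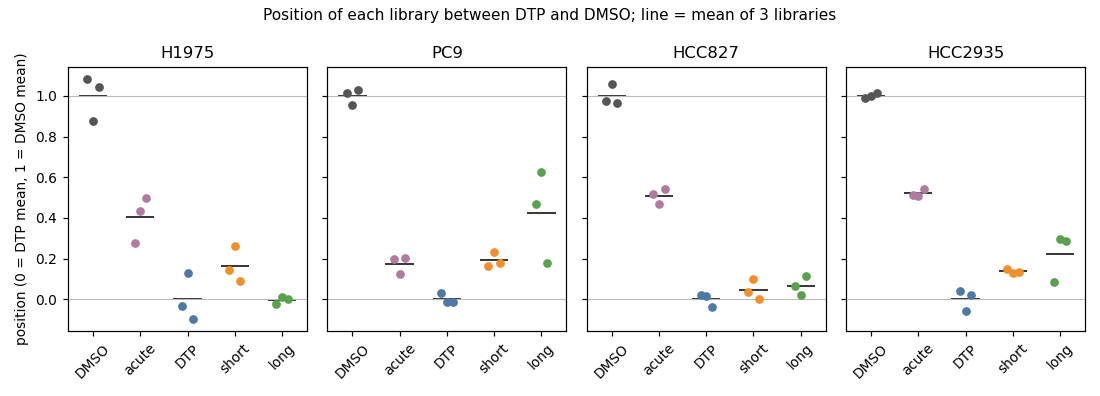
Position of each of the 60 libraries between the mean of the DTP libraries (0) and the mean of the DMSO libraries (1) of its own cell line (y axis, no unit), by arm. The line is the mean of 3 libraries. In H1975 long washout is at the DTP mean and short washout above it, while in the other lines the long washout mean is the higher one.

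The ERK target and feedback genes, which report on the pathway that osimertinib blocks, hardly separated the washout arms. Of 22 genes 1 was called, ETV4, which fell (lower genes made up 5.68% of all genes), and the median log2 fold change was 0.11. ETV4, an ETS factor induced by ERK, was at 2.23, 2.34 and 2.38 CPM in long and at 3.64, 4.76 and 4.37 CPM in short washout, which did not overlap (log2 fold change -0.88, SE 0.19, adjusted p = 0.0246). The ETV4 call was lost without any 1 of the long washout libraries or of short washout replicates 1 and 2, and held without short washout replicate 3. In the fit of 24 washout libraries 1 of the 22 was called higher in long washout of H1975 (248 of all 16108 genes were) and none lower. The replicate block called none of the list. DUSP6, the phosphatase that switches ERK off, was at 0.569, 0.434 and 2.72 CPM in long and at 0.939, 1.24 and 0.783 CPM in short washout. SPRY4, a Sprouty inhibitor of receptor signalling, was at 0.237, 0.241 and 1.61 CPM against 0.641, 0.576 and 0.544 CPM. Long washout replicate 3 was the highest and the other long washout libraries the lowest for both, and without it their log2 fold changes turned from 0.33 to -0.97 and from 0.25 to -1.28, neither called. FOSL1, an AP-1 subunit, was at 24.3, 27.4 and 60.0 CPM against 36.2, 65.7 and 30.5 CPM, with overlap. Under DMSO these 4 genes ran from 7.88 to 12.2, 7.89 to 14.9, 201 to 271 and 29.3 to 34.7 CPM for DUSP6, SPRY4, FOSL1 and ETV4, above both washout arms. In all, 14 of 22 genes were lower than under DMSO in long washout (26% of all genes were), 16 in short washout (21.8%) and 17 in DTPs (25.7%). The AP-1 motif (TGANTCA) stood in 1 of 14 promoters found for this list (7.76% of all promoters hold it) and the ETS motif CCGGAAGT in none (4.44% of all).

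Of 13 ERBB receptors, ligands and regulators tested, 2 rose in long washout and none fell (higher genes made up 4.06% of all genes). ERRFI1, an inhibitor that binds EGFR itself, was at 291, 288 and 480 CPM in long and at 144, 170 and 191 CPM in short washout, without overlap (log2 fold change 1.07, SE 0.20, adjusted p = 0.014). LRIG1, which marks EGFR for degradation, rose by 0.57. EGFR was at 233, 250 and 248 CPM against 258, 251 and 232 CPM and ERBB2 at 193, 175 and 178 CPM against 181, 175 and 184 CPM, so that both receptors overlapped, with log2 fold changes of -0.02 and 0.01. The ligands AREG (0.48, adjusted p = 0.623) and EREG (-0.19, adjusted p = 0.739) did not pass either. AREG was under 1 CPM in all 6 libraries and at 9.89 to 23.05 CPM under DMSO.

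Of 19 FOXO targets 4 rose in long washout (4.06% of all genes did) and none fell, with a median of 0.29. The count was 2 to 5 with 1 library left out, and 2 without any 1 of the long washout libraries. BMF, a BH3-only protein that promotes cell death, was at 24.2, 18.4 and 25.2 CPM in long and at 4.51, 6.34 and 10.96 CPM in short washout, without overlap. It was higher by 1.63 on the log2 scale (SE 0.28, adjusted p = 0.011) and was at 16.6 to 28.5 CPM in DTPs. FBXO32, the ubiquitin ligase atrogin-1, rose by 0.52, and the factors FOXO3 and FOXO4 by 0.35 and 0.68. BCL6, a repressor, did not overlap between arms but missed the threshold (0.62, adjusted p = 0.0534). PIK3IP1 (0.27), IRS2 (0.24) and ERBB3 (-0.45) overlapped between the arms.

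Of 18 CDK inhibitors and quiescence genes 4 rose in long washout (4.06% of all genes did) and none fell, with a median of 0.25. TXNIP, which binds thioredoxin and slows glucose uptake, was at 1072, 1117 and 1273 CPM in long and at 685, 503 and 872 CPM in short washout (log2 fold change 0.75, SE 0.17, adjusted p = 0.0307). YPEL3 rose by 0.72, the Krüppel-like factor KLF9 by 0.65 and MXD4, an antagonist of MYC, by 0.37. The CDK inhibitors themselves overlapped between arms, with CDKN1A (p21) at 0.28 (adjusted p = 0.315) and CDKN1B (p27) at -0.01 (adjusted p = 0.945), as did CCNG2 (-0.04). None of the 4 called genes remained without long washout replicate 1 or short washout replicate 1.

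Of 29 ATF4 and unfolded protein response genes 12 fell in long washout (5.68% of all genes did) and none rose, with a median of -0.25. The 12 genes are known for serine synthesis (PSAT1 -0.75, PHGDH -0.64, PSPH -0.50), one-carbon metabolism (SHMT2 -0.40, MTHFD2 -0.29), asparagine synthesis (ASNS), amino acid transport (SLC7A11 -0.55, SLC3A2 -0.56, SLC7A5 -0.67) and charging of glycyl-tRNA (GARS1 -0.35), besides TRIB3, a pseudokinase (-0.25), and CHAC1, which degrades glutathione (-1.20). ASNS was at 120, 125 and 107 CPM in long and at 189, 166 and 182 CPM in short washout, with a log2 fold change of -0.61 (SE 0.08, adjusted p = 0.00521). PSAT1 was at 182, 192 and 161 CPM against 323, 280 and 297 CPM. Neither gene overlapped between arms. DDIT3 (CHOP, 0.05) and HSPA5 (BiP, 0.19), which report stress of the endoplasmic reticulum, were not called. Without any 1 library between 5 (long washout replicate 1) and 13 (short washout replicate 2) members were called, with 6 without long washout replicate 2 and 7 without long washout replicate 3, and in the fit of 15 H1975 libraries 2. Against DMSO, 11 of 29 were higher in long washout (27.3% of all genes were), 18 in short washout (21.9%) and 17 in DTPs (26%). The CARE motif (TGATGCAAT) stood in none of 26 promoters found for this list (0.264% of all).

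Of 29 sterol and fatty acid synthesis genes 8 fell in long washout (5.68% of all genes did) and 2 rose (4.06%). The number that fell was 4 without long washout replicate 1 or 3 or short washout replicate 1, and 7 to 10 without any other library. Those that fell included the cholesterol synthesis enzymes HMGCS1 (-0.42), SQLE (-0.41), FDFT1 (-0.45), FDPS (-0.42), CYP51A1 (-0.44), DHCR7 (-0.66) and EBP (-0.74). SREBF1, the transcription factor of lipid synthesis, rose and was at 112, 130 and 146 CPM in long and at 67.5, 67.4 and 78.7 CPM in short washout (log2 fold change 0.86, SE 0.11, adjusted p = 0.00474). SCD, the stearoyl-CoA desaturase, overlapped between arms (0.08). Against DMSO, 15 of the list were lower (26% of all genes were) and 5 higher (27.3%) in long washout. In DTPs 16 were lower (25.7%) and 4 higher (26%), and in short washout 5 were lower and 6 higher. The counts of short washout are near the shares of all genes lower and higher than under DMSO there (21.8% and 21.9%). In the paired fit 15 of 29 were higher in short washout than in DTPs (6.7% of all genes were) and 1 was lower (4.87%). The SRE motif stood in 1 of 23 promoters found for this list (0.0476% of all).

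Of 28 ribosome biogenesis genes 5 fell in long washout (5.68% of all genes did), NCL (nucleolin, -0.34), NPM1 (-0.32), UTP20 (-0.34), RRP12 (-0.27) and RRP1B (-0.27), and none rose. NOP56 (-0.11), FBL (-0.10) and POLR1B (-0.10) overlapped between arms, and no member was called when long washout replicate 1, 2 or 3 or short washout replicate 1 or 2 was left out, while 9 were called without short washout replicate 3. Against DMSO, 17 of 28 were lower in long washout (26% of all genes were), 8 in short washout (21.8%) and 19 in DTPs (25.7%). Of 29 interferon-stimulated genes 4 rose and 1 fell (4.06% and 5.68% of all genes). IFITM1, a membrane protein that blocks viral entry, was at 23.4, 23.7 and 32.2 CPM in long and at 13.4, 13.5 and 19.99 CPM in short washout (log2 fold change 0.76, adjusted p = 0.037). IFITM3 (0.47), IRF1 (0.49) and BST2 (0.39) rose and OAS3 (-0.67) fell, while ISG15 (0.51), IFI27 (0.29), IFIT1 (-0.05) and MX1 (0.17) were not called. None of the list was called without long washout replicate 1, 2 without long washout replicate 2 and 1 without long washout replicate 3 or short washout replicate 1. Of 21 glycolysis and hypoxia genes CA9 (0.89), BNIP3L (0.36) and NDRG1 (0.44) rose and ADM (adrenomedullin, -0.86) fell (4.06% and 5.68% of all genes did). These calls were 2 without long washout replicate 1 or 2 and 1, with none higher, without long washout replicate 3 or short washout replicate 1 or 2. SLC2A1 (0.14) and PGK1 (-0.07) overlapped.

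Of 23 epithelial and mesenchymal markers tested, 3 epithelial genes rose in long washout and 2 genes fell (4.06% and 5.68% of all genes). Other epithelial members overlapped between arms, among them EPCAM (-0.15), KRT8 (0.04) and KRT18 (0.05). CDH1, E-cadherin, was at 7.64, 6.01 and 10.1 CPM in long and at 4.40, 3.94 and 4.89 CPM in short washout, far below its DMSO range given above. The tight junction gene CLDN4 was at 112, 117 and 110 CPM against 59.6, 58.1 and 79.7 CPM, and the keratin KRT19 rose by 0.50. TAGLN, an actin-binding protein of contractile cells, was at 184, 307 and 285 CPM in long and at 1026, 511 and 732 CPM in short washout (log2 fold change -1.55, SE 0.26, adjusted p = 0.00956). VIM (0.16), ZEB1 (-0.04) and FN1 (-0.80, adjusted p = 0.0889) were not called.

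By size, the 24 genes furthest apart between long and short washout were the 12 most raised and 12 most lowered among those called, averaging 1 CPM or more and not overlapping between arms. CHI3L1, a secreted chitinase-like glycoprotein, was at 100, 85.7 and 112 CPM in long and at 19.2, 12.1 and 27.3 CPM in short washout, the highest change of these (log2 fold change 2.34, SE 0.25, adjusted p = 0.00474). It lies on GRCh38 at chr1:203178931-203186749, next to MYBPH (chr1:203167811-203175813), which was at 2.42, 1.81 and 2.12 CPM against 0.344, 0.620 and 0.696 CPM. Both genes rose, as did PADI2 and PADI3, peptidylarginine deiminases of 1 gene cluster that turn arginine into citrulline. PADI2 (chr1:17066761-17119435) was at 19.9, 19.8 and 18.8 CPM against 2.61, 3.23 and 6.29 CPM, and PADI3 (chr1:17249098-17284233) at 3.72, 4.13 and 3.95 CPM against 0.595, 1.24 and 0.935 CPM. The neighbours SERPINB3 (chr18:63655197-63661963) and SERPINB4 (chr18:63637259-63644298) encode near-identical serpins, so counts may have been split between them. Their log2 fold changes were 2.09 (adjusted p = 0.0354) and 1.90 (adjusted p = 0.0228).

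The other 6 genes that rose were S100A9, a calcium-binding alarmin (14.6, 16.4 and 18.7 CPM against 3.34, 1.86 and 4.94 CPM), the selenium carrier SELENOP (2.28), GGT5 (2.21), CCN5 (2.14), the amino acid transporter SLC6A20 (1.92) and CDH5, VE-cadherin (1.84). CDH5 is also a marker of endothelial cells, at 14.04, 11.2 and 7.71 CPM in long and at 2.496, 2.53 and 4.16 CPM in short washout, and it was the only one of 10 tested markers of other cell types that was called. PECAM1, another endothelial marker, was at 0.989 to 2.24 CPM in long and at 0.458 to 1.22 CPM in short washout, VWF at 0.385 to 1.04 and 0.566 to 1.22 CPM, and the part of other cells in this result was not tested.

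Among the 12 that fell most, NGFR, the low-affinity neurotrophin receptor, was at 2.30, 1.79 and 1.25 CPM in long and at 9.66, 6.43 and 5.26 CPM in short washout. The change of NGFR was -1.997 (SE 0.29, adjusted p = 0.00669). Like SLC44A2, NGFR was highest in DTPs (10.2 to 17.6 CPM) and lowest under DMSO (0.254 to 0.395 CPM), with short washout nearer to DTPs than long washout. DUSP15, a phosphatase, fell by 1.61 and had the same order of arm means. MARCHF4 (-1.99), CGB5 (-1.71), SPC25 (-1.50), CLSPN (-1.47) and NCAPH (-1.34) had the other order among these 4 arms, with DMSO highest, short washout next and long washout near DTPs. SPC25 of the kinetochore, CLSPN of the replication checkpoint and NCAPH of condensin are cell cycle genes, and CGB5 belongs to a cluster of near-identical hormone subunit genes, so its counts are uncertain. The others were GPR1 (-1.82), SAC3D1 (-1.68), the cystatin CST6 (-1.64), TAGLN and ACHE, acetylcholinesterase (-1.36). Of these 24 genes, 11 overlap an annotated gene on the opposite strand, and whether counting used strand is not given in the sources used here.

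**Figure D4:**
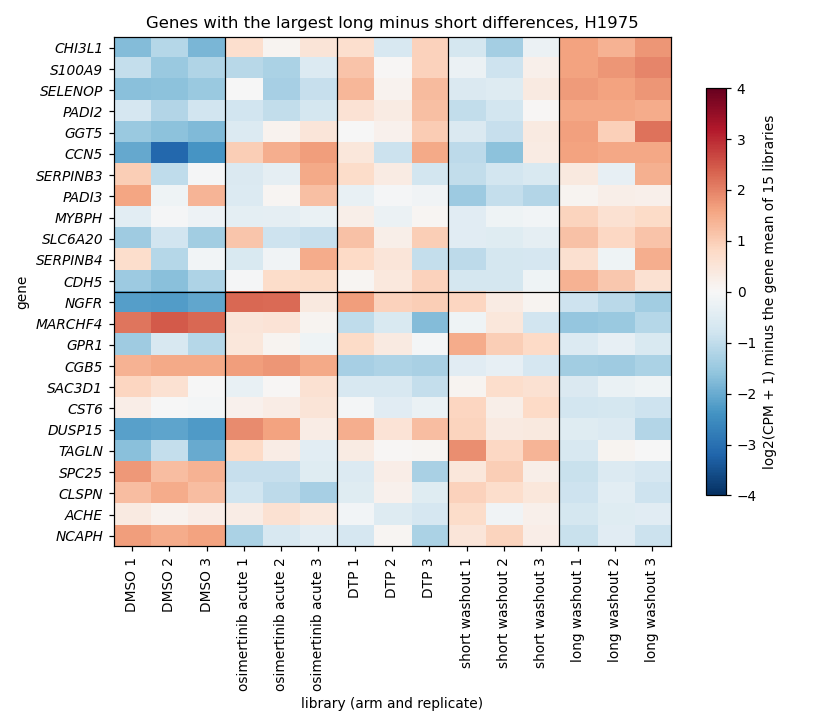
Levels of the 12 highest and 12 lowest genes (y axis, divided by the horizontal line) in the 15 H1975 libraries (x axis), as log2(CPM + 1) minus each gene's mean over these libraries. Each long washout library is above each short washout library for the upper 12 genes and below it for the lower 12. NGFR and DUSP15 are lowest under DMSO, and MARCHF4, SPC25, CLSPN and NCAPH are highest there.

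The same contrast in the other lines, fitted with H1975 in 24 washout libraries (630 genes called in H1975), called 791 of 16108 genes in PC9 (4.91%), 2 in HCC827 (0.0124%) and 149 in HCC2935 (0.925%). The PC9 count was 11 without long washout replicate 1, 20 without replicate 2 and 3567 without replicate 3, so it changed with single libraries. The HCC2935 count was 281, 75 and 31 in the same order. In HCC827, 1479 genes had an unadjusted p under 0.05, and the count was 1, 10 and 10 without its long washout replicates and 9 without PC9 long washout replicate 3, which also gave 314 for HCC2935. The washout times differed between lines, so only values side by side are given for these, and the difference was tested as H1975 against the mean of the others. The mitosis median was -1.04 in H1975 (34 of 36 lower), 0.94 in PC9 (21 higher), -0.34 in HCC827 (none called) and 0.80 in HCC2935 (1 higher). MKI67 was at 400, 446 and 267 CPM in long and at 185, 204 and 205 CPM in short washout of PC9, and at 214, 378 and 267 CPM against 187, 141 and 160 CPM in HCC2935. In these lines each long washout library was above each short washout library, the reverse of H1975. In HCC827 the arms overlapped (165, 184 and 173 CPM against 126, 288 and 263 CPM). The replication median was -0.83 in H1975 (30 of 40 lower) and 0.43 in PC9 (2 higher). It was -0.13 in HCC827 (none called) and -0.11 in HCC2935 (2 lower, the direction of H1975).

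The H1975 contrast differed from the mean of the other lines in 608 genes (3.77%), 412 lower and 196 higher in H1975. With library size as the only scaling these were 600 lower and 147 higher. All 36 mitosis genes and 27 of 40 replication genes were among the lower ones. With the H1975 labels exchanged, 572 genes (3.55%) differed, none of the mitosis genes among them, while 19 replication genes were then higher in H1975. The count under the given labels was 1650 without PC9 long washout replicate 3, a library nearer to DTPs (position 0.18) than the other long washout libraries of PC9 (0.47 and 0.63), and 189 without H1975 short washout replicate 2, 264 without H1975 long washout replicate 1, 277 without H1975 long washout replicate 3 and 371 without H1975 short washout replicate 1. Of genes called in both H1975 and another line, 13 of 105 had the same sign in PC9, 12 of 18 in HCC2935 and 1 of 1 in HCC827. The only genes called in HCC827 were DHRS3 (1.15) and SEMA3B (0.97), both higher in long washout, and SEMA3B was also higher in H1975 (0.80 in the same fit).

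**Figure D5:**
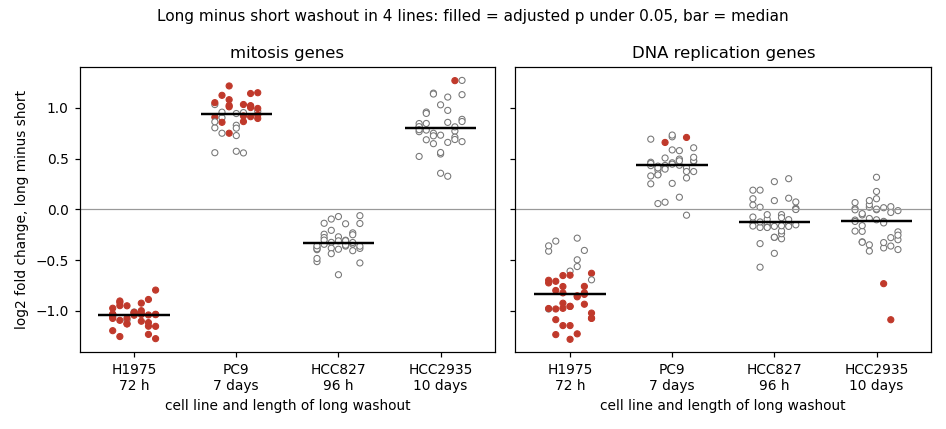
Log2 fold change (long minus short washout, y axis) of the mitosis genes (left) and DNA replication genes (right) in 4 cell lines, with the length of the long washout under each name. Points are genes, filled where the adjusted p is under 0.05, and the bar is the median. The mitosis median lies below 0 in H1975 and HCC827 and above 0 in PC9 and HCC2935.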

How the data were processed

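RNA was extracted with a Qiagen system, made into Illumina TruSeq mRNA libraries and sequenced on a HiSeq4000 in 5 arms of 4 cell lines. The authors deposited estimated counts, not normalized, and log2 TPM values (pseudocount 0.01, read from the value of genes at 0) for 19712 genes by symbol. The submitters' processing notes name HISAT2 2.1.0, Salmon 0.8.2 and hg38; the annotation is not given in the sources used here. Groups and replicate numbers came from the sample labels.

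Estimated counts were rounded and fitted with edgeR 4.0.16 (R 4.3.3; TMM, filterByExpr, quasi-likelihood F-test), separately for the 6 H1975 washout libraries, the 15 H1975 libraries and the 24 washout libraries of the 4 lines. Calls used a Benjamini-Hochberg adjusted p under 0.05 over all genes tested; the fits were tested on simulated data. The SE is the log2 fold change divided by the root of F. CPM are TMM-scaled within the fit. Positions used log2(CPM + 1). Alternatives were DESeq2 1.42.0, limma 3.58.1, other scalings, filters and fits, a replicate block and libraries left out. Replicate numbers were taken to pair DTP and short washout libraries, from their correlation alone; the labels do not say what a number shares. Genes named were the 12 highest and 12 lowest (above), the first 4 of each list with at least 4 calls and of the ERBB and ERK lists, each list's largest call, and further called members named after their values were seen. A further part of the rule, genes called in all 4 lines and opposite in H1975, found 0 genes. Lists and members were chosen with earlier results of these data known. Positions came from GENCODE 29 (GRCh38), by symbol. Figures used Python 3.11.15 and matplotlib 3.10.9. Some list members that were called are not reported here by name.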

Additional observations from a re-analysis of the deposited data

Results flagged for a closer look

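The long minus short washout difference of H1975 was tested against the mean of the same difference in PC9, HCC827 and HCC2935, and 608 of 16108 genes (3.77%) passed, which is why it is listed here. MKI67 had a log2 fold change of -1.08 in H1975, 0.91 in PC9, -0.38 in HCC827 and 0.81 in HCC2935, and the difference was -1.52 (edgeR, adjusted p = 0.00557). TOP2A gave a difference of -1.56 (adjusted p = 0.00516) and PLK1 one of -1.89 (adjusted p = 0.00565). With the H1975 labels exchanged these differences became 0.63 (adjusted p = 0.275), 0.34 (adjusted p = 0.627) and 0.66 (adjusted p = 0.382). In all, 572 genes (3.55%) differed under that exchange. None was on the mitosis list, but 19 of 40 replication genes were among them, all higher in H1975. A label exchange, a mix-up with DTPs and a true difference in time course cannot be told apart here.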

How the results depend on the processing

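The count of genes called between long and short washout (1429) was 2406 with DESeq2, 541 in the fit of 15 H1975 libraries, 630 in the fit of 24 washout libraries, 313 at an adjusted p under 0.01, and 440 to 2076 with 1 library left out. It stayed between 1118 and 1533 with limma, with RLE size factors or library size alone as scaling, and when every gene or those with 10 counts throughout were tested. The replicate block called 900 (357 higher, 543 lower). Same-numbered long and short washout libraries correlated at -0.04, -0.11 and -0.12 in their deviations and 0 of 3 correlated best with their own number, so the numbers do not pair these arms. Against DTPs, long washout gave 1 gene as reported, 2 with 10 counts throughout, 6 with the replicate block and 0 to 4 with 1 library left out, and short washout gave 9, then 14, 56 and 0 to 15. Fitted alone with DTPs, an alternative chosen after seeing the data, long washout gave 2 with or without the replicate block. Short washout gave 0 without the block and 1697 with it, where the pairing by number was read from the same values. The calls of the contrast between lines ran from 189 to 1650 with 1 library left out, those of PC9 from 11 to 3567, of HCC827 from 1 to 10 and of HCC2935 from 31 to 314. Leaving out the long washout libraries of the other lines was chosen after seeing the data. The block called 641 genes in the contrast between lines, 778 in PC9, 2 in HCC827 and 149 in HCC2935, and it moved no count against DMSO by over 1.5 times. The position difference in H1975 kept its sign in every alternative run, from -0.207 to -0.121 with 1 library left out. Of 126 named genes followed, 94 were called, and 0 of these changed sign in any alternative. Many of the 94 were named because they were called, so the selection favoured this outcome. The fit of 15 H1975 libraries lost 48 of the 94 calls and the fit of 24 washout libraries 46.

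Genes that were not called and changed sign had these ranges of log2 fold change with 1 library left out. AREG ran from -0.13 to 0.89, CCNG2 from -0.18 to 0.070, CDKN1B from -0.043 to 0.021, DDIT3 from -0.12 to 0.17, DUSP6 from -0.97 to 0.73 and EGFR from -0.074 to 0.012. ERBB2 ran from -0.032 to 0.040, FOSL1 from -0.77 to 0.16, IFI27 from -0.036 to 0.77, IFIT1 from -0.17 to 0.010, IRS2 from -0.011 to 0.39 and PGK1 from -0.13 to 0.00023. SCD ran from -0.059 to 0.22, SLC2A1 from -0.11 to 0.27, SPRY4 from -1.28 to 0.66 and ZEB1 from -0.10 to 0.034. Under limma DUSP6 was -0.19, SPRY4 -0.37 and ERBB2 -0.043, under the replicate block DUSP6 was -0.10 and SPRY4 -0.26, and with library size only ERBB2 was -0.0080. The cause was not tested.

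Replicate libraries differed by 15.2 to 50.9 times counting error over the genes compared, and low genes were not part of this check.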

Other observations

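Other lists separated the washout arms of H1975 in few genes. Of 18 cytokines and NF-kB targets tested, IL11, a cytokine of the IL-6 family, was at 3.30, 5.94 and 5.20 CPM in long and at 11.1, 14.8 and 8.05 CPM in short washout (edgeR, log2 fold change -1.23, adjusted p = 0.0246), and BIRC3, an inhibitor of apoptosis, fell by 0.91 (5.68% of all genes fell). None of the list was called without long washout replicate 1 or 3 or short washout replicate 1 or 2. Of 19 YAP and TEAD targets AJUBA (0.50) and ARHGEF17 (0.37) rose (4.06% of all genes did). None of the list was called without long washout replicate 2 or short washout replicate 1 or 2, and the replicate block called 1 gene, lower. Of 25 lysosome and autophagy genes NBR1, an autophagy receptor, rose (0.32) and GLA, the lysosomal alpha-galactosidase, fell (-0.42), shares near those of all genes (4.06% higher, 5.68% lower), with 0 called without long washout replicate 1 or short washout replicate 1 and 6 without short washout replicate 3. None of 23 respiratory chain genes was called, with a median log2 fold change of -0.07, by edgeR, and between 0 and 2 were called in the alternatives.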
